A study of Homo sapiens with 16 samples.

Results

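The G1 cyclins and their kinases were followed as a fixed list of 9 genes among the 62754 genes counted in LNCaP cells, an established human line from prostate cancer. The list holds the D-type cyclins CCND1, CCND2 and CCND3, the E-type cyclins CCNE1 and CCNE2, the kinases CDK4, CDK6 and CDK2, and the phosphatase CDC25A. The genes were found by symbol through their Ensembl identifiers, and 8 of the 9 had enough counts to be tested. There were 16 libraries of total RNA, 4 in each of 4 groups. The groups were p53 KO cells with GCN2iB, p53 KO cells with vehicle, WT cells with GCN2iB and WT cells with vehicle. GCN2iB, an inhibitor of the eIF2 kinase GCN2, was given at 5 µM for 48 h, and vehicle was DMSO. The knockout was made by CRISPR, and whether the knockout line is 1 clone or a pool is not given in the labels. Nor do they give whether replicates came from separate cultures, so p-values here speak only to library-to-library spread, which may be technical. The series asks how loss of p53 together with GCN2 inhibition alters gene expression.

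D-type cyclins bind CDK4 and CDK6 and link growth signals to the cell cycle, because the active kinases phosphorylate the retinoblastoma protein and so free E2F transcription factors. E2F in turn raises transcription of the E-type cyclins, which activate CDK2 at the entry into S phase. CDC25A removes inhibitory phosphates from CDK2, while p21, the product of the p53 target CDKN1A, blocks the cyclin kinases. These are general facts about the pathway, and transcript levels do not report kinase activity.

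Total counts per library ranged from 17418072 to 39915685. Levels are given in CPM, the usual unit of counts relative to the total of a library, here after TMM scaling, and means are given ± SD over the 4 libraries of a group. CDKN1A spanned 35.4 to 51.7 CPM over the 8 p53 KO libraries, against 247 to 501 CPM over the 8 WT libraries. The amino acid response gene CHAC1 spanned 1.65 to 4.28 CPM over the GCN2iB libraries, against 17.5 to 27.1 CPM over the vehicle libraries. The luminal prostate markers KLK2, KLK3, TMPRSS2, FOLH1, KRT8 and KRT18 summed to 3843 to 4271 CPM in p53 KO GCN2iB, 4159 to 4412 CPM in p53 KO vehicle, 3943 to 4188 CPM in WT GCN2iB and 4520 to 4922 CPM in WT vehicle. Within them KLK2 averaged 457 CPM in p53 KO GCN2iB, 565 CPM in p53 KO vehicle, 305 CPM in WT GCN2iB and 356.5 CPM in WT vehicle, whereas TMPRSS2 averaged 227, 274, 335 and 391 CPM in these groups. Of 15 markers of other cell types 5 reached 10 counts in any library, and the immune and blood markers summed to at most 0.0874 CPM. Basal markers, in practice KRT14, summed to 3.20 to 4.26 CPM in p53 KO and 2.05 to 2.79 CPM in WT libraries, with KRT5 and TP63 at or near 0. Neuroendocrine markers, in practice SYP, summed to 5.42 to 8.15 CPM in p53 KO and 4.20 to 5.02 CPM in WT libraries. Stromal markers, mainly COL1A1, summed to 12.9 to 14.8 CPM in p53 KO GCN2iB, 17.2 to 19.6 CPM in p53 KO vehicle, 16.7 to 20.1 CPM in WT GCN2iB and 20.2 to 25.7 CPM in WT vehicle. The part of these markers in the results was not tested. WT vehicle replicate 1 stood apart on the first principal component, at -15.3 against -19.6 to -19.2 in the others of its group. On the second component it lay at 24.3, against 8.19 to 15.4. WT GCN2iB replicate 4 stood apart on the first component, at -14.5 against -23.2 to -20.8 in the other WT GCN2iB libraries. p53 KO GCN2iB replicate 4 stood apart on the second component, at -26.6 against -11.7 to -6.90 in the others of its group. With both GCN2iB replicate 4 libraries left out every member called in a comparison below passed again. For GCN2iB, CDK4 then stood at log2 0.48 in p53 KO and 0.50 in WT cells, and CDK2 at 0.38 in p53 KO cells. Between genotypes under GCN2iB, CCND1 then stood at -0.17 and CDK6 at 1.38.

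The members differed widely in abundance. Per kilobase of exon, WT vehicle libraries held 77.8 ± 4.45 CPM of CCND1, 46.2 ± 3.88 of CDK4, 13.2 ± 1.19 of CCND3, 13.0 ± 0.738 of CDK2 and 12.7 ± 0.234 of CDC25A (SD, n = 4). The E-type cyclins stood below these, at 9.31 ± 0.693 CPM per kilobase for CCNE1 and 3.52 ± 0.564 for CCNE2. CDK6 was far lower at 0.223 ± 0.0156 CPM per kilobase. In the same unit p53 KO vehicle libraries held 0.602 ± 0.119 of CDK6 and 37.6 ± 4.31 of CDK4, so CDK4 was the more abundant of the pair in both genotypes. CCND2 was not detectable as an expressed gene at this depth. It had 0 counts in 10 libraries and 1 or 2 counts in the other 6. In those 10 a count of 0 allows a level of up to 0.0819 to 0.173 CPM depending on the library, for counting error only. It did not pass the filter on low counts and has no test. AC008012.1 on the same strand shares 13.8% of the exon bases of CCND2, and reads there may not be assigned to it.

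**Figure D1:**
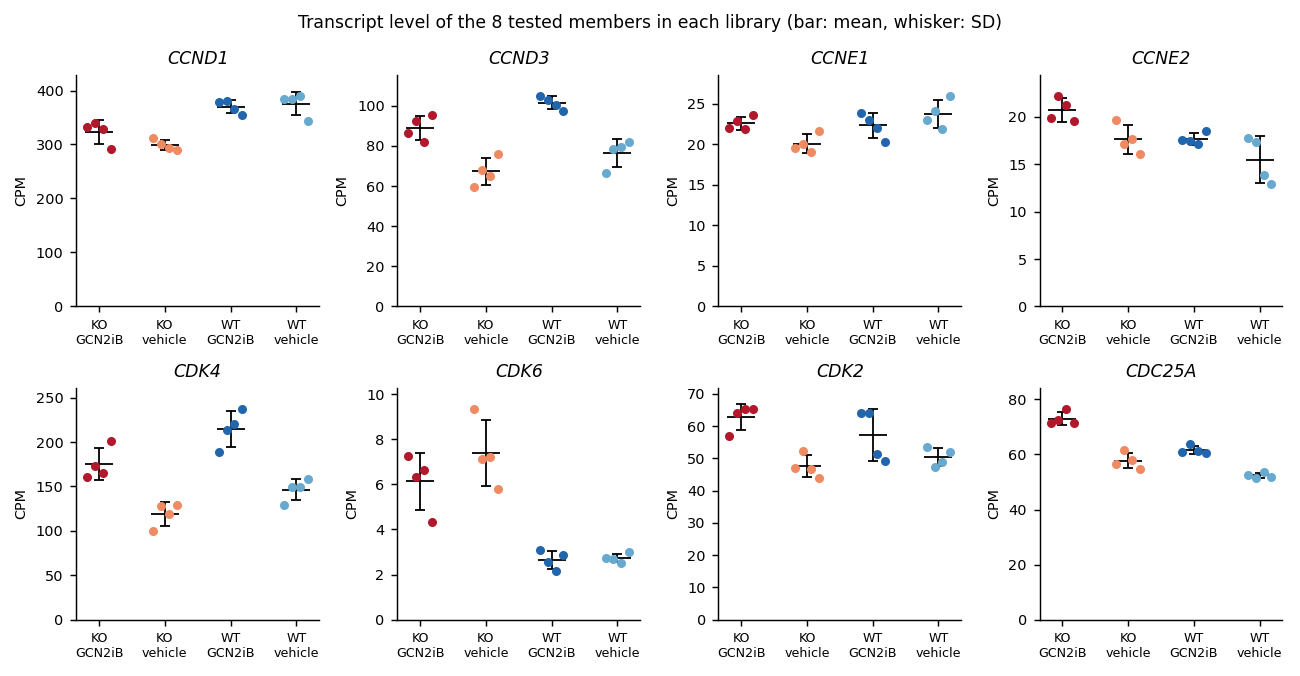
Level in CPM (vertical axes, starting at 0) of the 8 tested members in each library of the 4 groups; points are libraries in order of replicate, bars the means and whiskers the SD. CDK6 lies at 4.34 to 9.34 CPM in p53 KO libraries and at 2.15 to 3.07 CPM in WT libraries, and CDK4, CCND3 and CDC25A lie higher with GCN2iB than with vehicle in each genotype.

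Which G1 regulators respond to GCN2iB was asked first, by comparing it with vehicle within each genotype. CDK4, CCND3 and CDC25A rose in both genotypes, by 1.17-fold to 1.47-fold, and CDK2 rose in p53 KO cells. In p53 KO cells 4 of the 8 tested members rose and no member fell, where 20.1% of all 18549 tested genes were called, 11.4% higher and 8.71% lower. In WT cells 3 rose and no member fell, where 25.2% of tested genes were called, 11.6% higher and 13.6% lower. Genes were called at an adjusted p under 0.05 in edgeR's quasi-likelihood test, adjusted by Benjamini-Hochberg over all tested genes. In p53 KO cells 56.7% of all calls were higher, and 34.4% with library totals as the only scaling. In RNA from whole cultures a larger share of dividing cells and more transcript per cell cannot be told apart.

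CDK4, a catalytic partner of the D-type cyclins (ENSG00000135446, GRCh38 chromosome 12, 57747727 to 57756013), rose most among the members. It stood at 161, 172.5, 165.3 and 201 CPM in p53 KO GCN2iB, against 99.97, 128, 119 and 129 CPM in p53 KO vehicle. It stood at 189, 213, 220 and 237 CPM in WT GCN2iB, against 129, 149, 150 and 158 CPM in WT vehicle. Within each genotype the GCN2iB libraries all lay above the vehicle libraries, and in every group replicate 1 was the lowest library and replicate 4 the highest. The change was 1.47-fold in p53 KO cells (log2 0.55, SE 0.09, adjusted p = 9.61e-05) and 1.47-fold in WT cells (log2 0.55, SE 0.09, adjusted p = 8.15e-05). TSPAN31, a tetraspanin gene on the opposite strand, shares 43.2% of the exon bases of CDK4, and the strand setting of the counting is not given. TSPAN31 moved the other way, at 16.2 CPM with GCN2iB against 20.1 CPM with vehicle in p53 KO cells (log2 -0.32, adjusted p = 0.00222 by edgeR) and 16.7 against 21.2 CPM in WT cells (log2 -0.35, adjusted p = 0.000857).

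CCND3, cyclin D3, a regulatory partner of CDK4 and CDK6 (ENSG00000112576, chromosome 6, 41934933 to 42050357), changed by nearly the same amount in both genotypes. Its levels were 86.3, 92.5, 81.7 and 95.2 CPM in p53 KO GCN2iB, against 59.7, 68.2, 65.2 and 76.1 CPM in p53 KO vehicle. They were 105, 103, 101 and 97.5 CPM in WT GCN2iB, against 66.4, 78.6, 79.3 and 81.8 CPM in WT vehicle. The groups did not overlap in either genotype. The rise was 1.32-fold in p53 KO cells (log2 0.40, SE 0.08, adjusted p = 0.000524 by edgeR) and 1.32-fold in WT cells (log2 0.40, SE 0.08, adjusted p = 0.000404). CCND1, cyclin D1 (ENSG00000110092, chromosome 11, 69641087 to 69654474), did not pass the test. It averaged 323 ± 21.5 CPM in p53 KO GCN2iB and 299 ± 9.49 CPM in p53 KO vehicle (log2 0.11, SE 0.06, adjusted p = 0.199). In WT cells it averaged 370 ± 12.2 CPM with GCN2iB and 375.5 ± 21.5 CPM with vehicle (log2 -0.02, 95% interval -0.14 to 0.10, adjusted p = 0.830).

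CDC25A, the phosphatase that activates CDK2 (ENSG00000164045, chromosome 3, 48157146 to 48188402), varied little between replicates, with a coefficient of variation of 1.83 to 4.87% within the 4 groups. Its levels were 71.5, 72.5, 76.5 and 71.5 CPM in p53 KO GCN2iB, against 56.7, 61.5, 58.1 and 54.8 CPM in p53 KO vehicle. They were 60.9, 63.6, 61.4 and 60.5 CPM in WT GCN2iB, against 52.5, 51.6, 53.8 and 51.9 CPM in WT vehicle. GCN2iB and vehicle libraries did not overlap in either genotype. The rise was 1.26-fold in p53 KO cells (log2 0.34, SE 0.05, adjusted p = 0.000134 by edgeR) and 1.17-fold in WT cells (log2 0.23, SE 0.06, adjusted p = 0.0035).

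Of the 5 members with a promoter window on hand, CDC25A alone held an exact match to an E2F string searched here. The 250 bases before its annotated start lie on the minus strand of GRCh38.p14 at chr3:48188418-48188667 and were taken from RefSeq. They are shown because they hold this match, and capitals mark the motif.
CDC25A: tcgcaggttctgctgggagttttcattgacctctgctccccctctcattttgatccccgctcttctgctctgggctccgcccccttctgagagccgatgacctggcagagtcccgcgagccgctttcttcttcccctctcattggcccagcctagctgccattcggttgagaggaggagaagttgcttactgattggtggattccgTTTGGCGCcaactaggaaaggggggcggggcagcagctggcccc
The motif was searched on both strands as any of TTTCGCGC, TTTGGCGC, TTTCCCGC or TTTGCCGC. It lies with 36 bases between it and the start, and 2.79% of 35114 RefSeq windows of this length held any of these strings. The window also holds 2 copies of CCAAT on the opposite strand, a motif found in 32.0% of windows. The 5 members had 8 windows in all. Those of CCND3, CDK6, CDK4 and CCNE1 held none of the E2F strings, and CDK4 and CCND3 rose with GCN2iB in both genotypes as well. CCND1, CCND2, CCNE2 and CDK2 had no entry. Other forms of the motif and bases after the start were not searched. A match in the letters is a description and does not show a site in use.

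CDK2, the kinase activated by the E-type cyclins (ENSG00000123374, chromosome 12, 55966769 to 55972784), rose in p53 KO cells. It stood at 56.8, 64.1, 65.3 and 65.2 CPM in p53 KO GCN2iB, against 47.1, 52.3, 46.6 and 44.0 CPM in p53 KO vehicle, with no overlap. The change was 1.32-fold (log2 0.40, SE 0.08, adjusted p = 0.00134 by edgeR). The antisense gene AC025162.1 shares 14.5% of the exon bases of CDK2. In WT cells CDK2 stood at 64.0, 64.2, 51.5 and 49.2 CPM with GCN2iB, against 53.7, 47.3, 48.8 and 51.9 CPM with vehicle. Replicates 1 and 2 of WT GCN2iB lay above every WT vehicle library, whereas replicates 3 and 4 lay among them. This difference did not pass (log2 0.18, SE 0.08, adjusted p = 0.114), and it passed without WT GCN2iB replicate 4, which stood apart in its group (log2 0.27, adjusted p = 0.0272).

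The E-type cyclins and CDK6 did not pass the test for GCN2iB in either genotype. CCNE1, cyclin E1 (ENSG00000105173, chromosome 19, 29811898 to 29824308), averaged 22.6 ± 0.812 CPM in p53 KO GCN2iB and 20.1 ± 1.13 CPM in p53 KO vehicle (log2 0.17, adjusted p = 0.0964), and the 2 groups did not overlap. In WT cells it averaged 22.3 ± 1.56 CPM with GCN2iB and 23.7 ± 1.77 CPM with vehicle (log2 -0.09, adjusted p = 0.384). CCNE2, cyclin E2 (ENSG00000175305, chromosome 8, 94879770 to 94896678), averaged 20.7 ± 1.26 CPM in p53 KO GCN2iB and 17.6 ± 1.52 CPM in p53 KO vehicle (log2 0.23, adjusted p = 0.0817). In WT cells it averaged 17.7 ± 0.599 CPM with GCN2iB and 15.5 ± 2.48 CPM with vehicle (log2 0.20, adjusted p = 0.124). This passed with GC and length trends removed (log2 0.27, adjusted p = 0.00751), and without WT vehicle replicate 1 (0.037) or replicate 2 (0.0463). INTS8 on the opposite strand shares 37.0% of the exon bases of CCNE2 and was the more abundant gene, with 47.2 to 70.1 CPM over all libraries, so the level of CCNE2 is uncertain. INTS8 rose with GCN2iB in p53 KO cells (log2 0.29, adjusted p = 0.0101). CDK6 averaged 6.13 ± 1.26 CPM in p53 KO GCN2iB and 7.38 ± 1.46 CPM in p53 KO vehicle (log2 -0.28, 95% interval -0.58 to 0.03, adjusted p = 0.201). In WT cells CDK6 averaged 2.66 ± 0.400 CPM with GCN2iB and 2.73 ± 0.192 CPM with vehicle (log2 -0.04, 95% interval -0.40 to 0.33, adjusted p = 0.907).

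**Figure D2:**
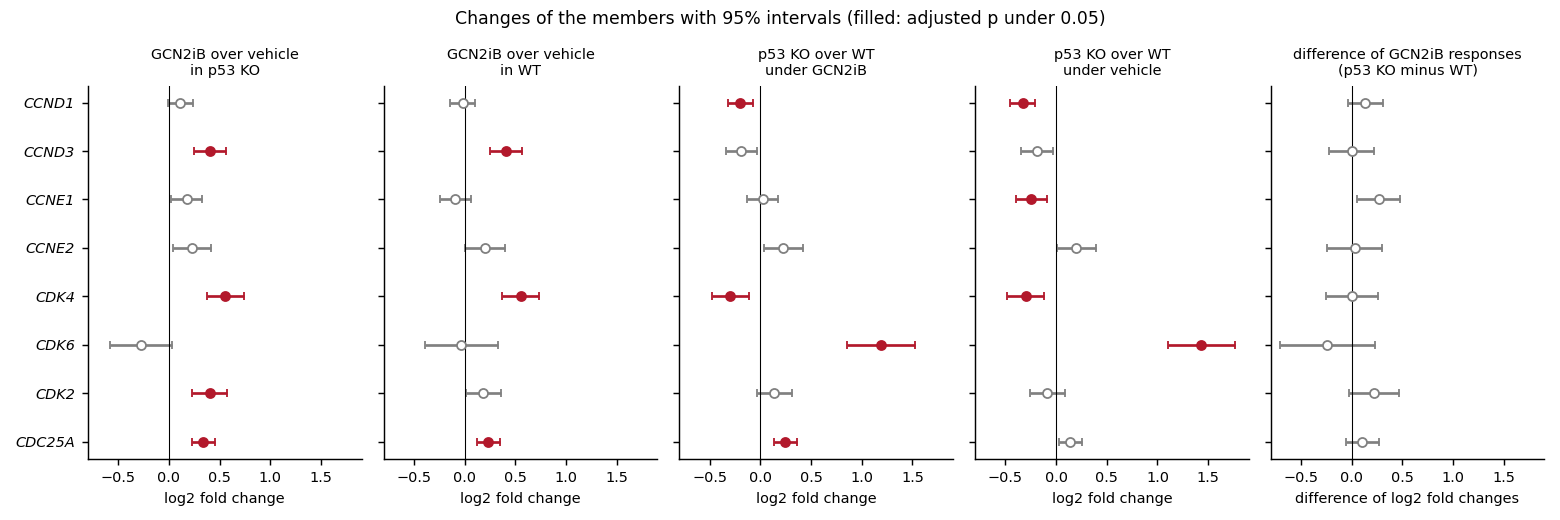
log2 fold change of each tested member (points) with its 95% interval (bars) in the 4 comparisons and, in the last panel, the difference of the GCN2iB responses, p53 KO minus WT; filled points have an adjusted p under 0.05. CDK4, CCND3 and CDC25A are filled under GCN2iB in both genotypes, CDK6 stands at 1.19 and 1.43 between genotypes, and no point is filled in the last panel.

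The genotypes were compared next, under each treatment, to ask which G1 regulators differ between p53 KO and WT cells. Other differences between these lines cannot be told apart from the loss of p53. CDK6 rose in p53 KO cells by 2.29-fold to 2.70-fold, while CCND1 and CDK4 fell under both treatments. Under GCN2iB 2 members rose and 2 fell, where 23.9% of tested genes were called, 12.7% higher and 11.2% lower. Under vehicle 1 rose and 3 fell, where 21.7% of tested genes were called, 9.63% higher and 12.1% lower. Under vehicle 44.4% of all calls were higher, and 60.8% with library totals as the only scaling.

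CDK6, the other catalytic partner of the D-type cyclins (ENSG00000105810, chromosome 7, 92604921 to 92836594), differed most. Under GCN2iB it stood at 7.26, 6.31, 6.62 and 4.34 CPM in p53 KO libraries, against 3.07, 2.55, 2.15 and 2.86 CPM in WT libraries. Under vehicle it stood at 9.34, 7.12, 7.23 and 5.82 CPM in p53 KO libraries, against 2.73, 2.68, 2.52 and 2.99 CPM in WT libraries. Every p53 KO library lay above every WT library. These levels rest on 115 to 391 counts per p53 KO library and 54 to 110 counts per WT library. The rise was 2.29-fold under GCN2iB (log2 1.19, SE 0.16, adjusted p = 8.7e-06 by edgeR) and 2.70-fold under vehicle (log2 1.43, SE 0.16, adjusted p = 4.48e-07). Within p53 KO cells replicate 4 was the lowest library under both treatments and replicate 1 the highest.

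CCND1 fell in p53 KO cells. Under GCN2iB it stood at 332, 340, 329 and 291.5 CPM in p53 KO libraries, against 379, 381, 365 and 355 CPM in WT libraries. Under vehicle it stood at 311, 302, 294 and 289.8 CPM in p53 KO libraries, against 384, 384, 391 and 344 CPM in WT libraries. The genotypes did not overlap under either treatment. The level was 1.15-fold lower under GCN2iB (log2 -0.20, SE 0.06, adjusted p = 0.0175 by edgeR) and 1.25-fold lower under vehicle (log2 -0.33, SE 0.06, adjusted p = 0.000233). Without p53 KO GCN2iB replicate 4 the first call ended (log2 -0.15, adjusted p = 0.0502). LTO1 on the opposite strand shares 10.3% of the exon bases of CCND1 and was higher in p53 KO cells under both treatments (log2 0.29 and 0.26, adjusted p = 0.00667 under GCN2iB and 0.0162 under vehicle, edgeR).

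CDK4 fell in p53 KO cells by similar amounts under both treatments. It averaged 175 ± 17.9 CPM in p53 KO GCN2iB and 215 ± 20.1 CPM in WT GCN2iB (log2 -0.30, SE 0.09, adjusted p = 0.0156 by edgeR). It averaged 119 ± 13.7 CPM in p53 KO vehicle and 147 ± 12.3 CPM in WT vehicle (log2 -0.30, SE 0.09, adjusted p = 0.0161). The ranges of the genotypes overlapped at the edge in both cases, and without p53 KO vehicle replicate 1, its lowest library, the call under vehicle ended (adjusted p = 0.0555). In order of level, WT GCN2iB and p53 KO GCN2iB overlapped, both lay above WT vehicle, and WT vehicle overlapped p53 KO vehicle.

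CCNE1 fell in p53 KO cells under vehicle. It stood at 19.6, 20.1, 19.1 and 21.7 CPM in p53 KO vehicle, against 23.0, 24.1, 21.9 and 26.0 CPM in WT vehicle, with a gap of less than 1 CPM between the groups. The level was 1.18-fold lower (log2 -0.24, SE 0.07, adjusted p = 0.0174 by edgeR). The call ended without WT vehicle replicate 4 (adjusted p = 0.0722), without p53 KO vehicle replicate 3 (0.0575) and with library totals as the scaling (0.0708). Under GCN2iB the genotypes overlapped, at 21.9 to 23.6 CPM in p53 KO and 20.3 to 23.9 CPM in WT libraries (log2 0.02, adjusted p = 0.865).

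CDC25A rose in p53 KO cells under GCN2iB, where the p53 KO libraries at 71.5 to 76.5 CPM all lay above the WT libraries at 60.5 to 63.6 CPM. The change was 1.18-fold (log2 0.24, SE 0.05, adjusted p = 0.00216 by edgeR). Under vehicle the p53 KO libraries at 54.8 to 61.5 CPM also lay above the WT libraries at 51.6 to 53.8 CPM, but the difference did not pass (log2 0.14, SE 0.06, adjusted p = 0.0756). It passed with library totals as the scaling (log2 0.20, adjusted p = 0.0161), with the DESeq2 test (0.0371), with a mean of at least 50 counts as the filter (0.0145) and with GC and length trends removed (log2 0.21, adjusted p = 0.000419). Over the 4 groups CDC25A was highest in p53 KO GCN2iB, clear of all others, then in WT GCN2iB and p53 KO vehicle, which overlapped, and lowest in WT vehicle.

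CCND3, CCNE2 and CDK2 did not pass between genotypes. CCND3 averaged 89.0 ± 6.10 CPM in p53 KO GCN2iB and 101.5 ± 3.27 CPM in WT GCN2iB, which did not overlap (log2 -0.19, adjusted p = 0.0712 by edgeR). It stayed uncalled in only 4 of 10 other settings. It passed with only these groups fitted (0.0225), by DESeq2 (0.0440), without a filter (0.0414) and with GC and length trends removed (0.00834). Without both GCN2iB replicate 4 libraries it passed too (0.0358). CCND3 averaged 67.3 ± 6.85 CPM in p53 KO vehicle and 76.5 ± 6.89 CPM in WT vehicle (log2 -0.19, adjusted p = 0.0798, and 0.0124 without WT vehicle replicate 1 and 0.0172 without p53 KO vehicle replicate 4). CCNE2 stood at 19.5 to 22.2 CPM in p53 KO GCN2iB and 17.1 to 18.5 CPM in WT GCN2iB, without overlap (log2 0.23, adjusted p = 0.0769, and 0.0475 with only these groups fitted). Under vehicle the genotypes overlapped (log2 0.20, adjusted p = 0.139, and 0.0178 with GC and length trends removed). CDK2 differed by log2 0.14 under GCN2iB (95% interval -0.04 to 0.31, adjusted p = 0.259) and by -0.08 under vehicle (95% interval -0.26 to 0.09, adjusted p = 0.527).

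Whether the response to GCN2iB differs between the genotypes was tested as the interaction, the response in p53 KO cells minus that in WT cells. No member passed in edgeR, DESeq2 or limma voom, and 1 member, CCNE1, had an unadjusted p under 0.05. Of all tested genes 0.00539% were called, a single gene. For CCNE1 the difference was log2 0.26 (95% interval 0.05 to 0.48, unadjusted p = 0.0165, adjusted p = 0.432). For CDK2, which passed in p53 KO cells and not in WT cells, it was log2 0.22 (95% interval -0.02 to 0.46, adjusted p = 0.587). The intervals ran from -0.25 to 0.26 for CDK4, from -0.22 to 0.22 for CCND3 and from -0.06 to 0.27 for CDC25A, and differences within these intervals could not be told from 0. For CDK6 the interval ran from -0.71 to 0.23.

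Shares within a family do not depend on how library totals are scaled. CCND1 supplied most D-type cyclin reads in every library. CCND3 made up 21.6 ± 2.08% of them in p53 KO GCN2iB and 18.4 ± 1.93% in p53 KO vehicle, with overlapping ranges. In WT cells CCND3 made up 21.5 ± 0.193% with GCN2iB and 16.96 ± 1.83% with vehicle, with no overlap (21.3 to 21.7% against 14.7 to 19.2%). CDK6 made up 2.11 to 4.31% of the reads of CDK4 and CDK6 in p53 KO GCN2iB, 4.30 to 8.55% in p53 KO vehicle, 0.969 to 1.60% in WT GCN2iB and 1.66 to 2.07% in WT vehicle. Per length, CDK4 exceeded CDK6 by 85.9-fold to 179-fold in p53 KO GCN2iB, 41.4-fold to 86.1-fold in p53 KO vehicle, 238-fold to 396-fold in WT GCN2iB and 183-fold to 230-fold in WT vehicle. The 179-fold value is p53 KO GCN2iB replicate 4, which stood apart, and the other libraries of its group reached at most 106-fold. The 41.4-fold value is p53 KO vehicle replicate 1, and the others of that group were at least 63.5-fold. CCNE2 made up 47.8 ± 1.92% of E-type cyclin reads in p53 KO GCN2iB and 46.7 ± 3.22% in p53 KO vehicle. In WT cells it made up 44.2 ± 2.41% with GCN2iB and 39.3 ± 4.63% with vehicle. The summed D-type cyclins reached 387 to 432 CPM in p53 KO GCN2iB, 359 to 371 CPM in p53 KO vehicle, 452.5 to 484 CPM in WT GCN2iB and 425.5 to 470 CPM in WT vehicle. These shares and sums are descriptions without a test.

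**Figure D3:**
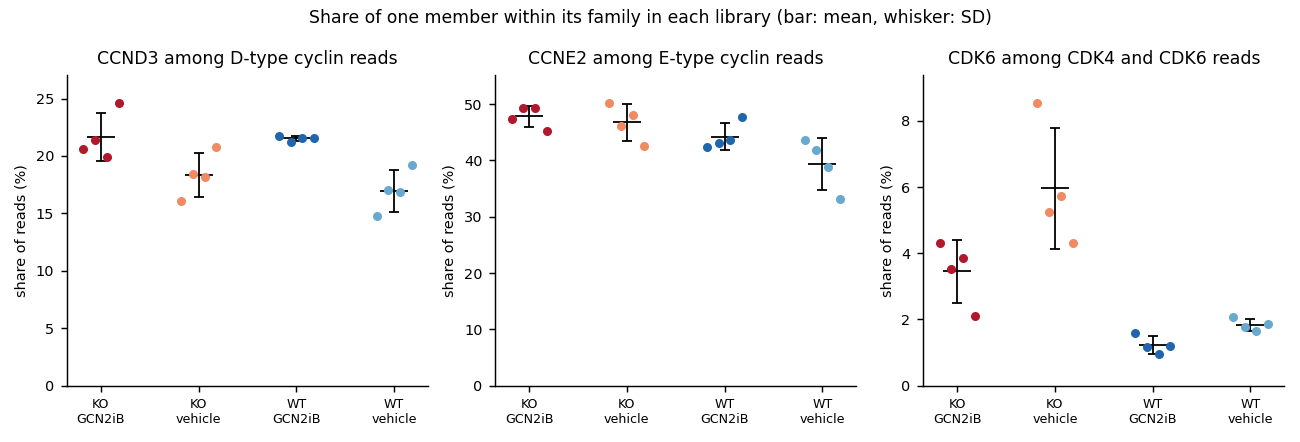
Share in percent of reads (vertical axes, starting at 0) of CCND3 among D-type cyclins, CCNE2 among E-type cyclins and CDK6 among CDK4 and CDK6, for each library of the 4 groups; bars are means and whiskers the SD. CDK6 holds 2.11 to 8.55% in p53 KO libraries against 0.969 to 2.07% in WT libraries.

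The partner genes of the pathway were described by 5 lists. Counts are of genes that passed edgeR's test, and each list median stands beside that of all tested genes, which was -0.01 for GCN2iB in p53 KO cells, -0.03 in WT cells, 0.03 between genotypes under GCN2iB and 0.01 under vehicle. The shares of all tested genes called in either direction were, in the same order, 20.1%, 25.2%, 23.9% and 21.7%. Among CDK inhibitors, 5 of 7 rose with GCN2iB in p53 KO cells (median log2 0.45) and 6 of 7 in WT cells (median 0.74), with none lower. With library totals as the scaling 4 rose in p53 KO and 5 in WT cells. CDKN1A rose 1.69-fold in WT cells (log2 0.76, adjusted p = 7.61e-06 by edgeR). In p53 KO cells it did not pass (log2 0.20, adjusted p = 0.183). Nor did its difference of responses (log2 -0.56, adjusted p = 0.286). Without both GCN2iB replicate 4 libraries 1 of the 7 inhibitors had a difference of responses called lower, and that count does not name the gene. CDKN2D, an INK4 inhibitor of CDK4 and CDK6, averaged 43.5 ± 6.08 CPM with GCN2iB and 21.6 ± 2.34 CPM with vehicle in p53 KO cells (log2 1.01, adjusted p = 5.07e-08). In WT cells it averaged 35.7 ± 2.03 CPM with GCN2iB and 15.7 ± 0.924 CPM with vehicle (log2 1.18, adjusted p = 6.24e-09). CDKN2C, of the same INK4 family, rose 1.51-fold in p53 KO cells and 1.71-fold in WT cells. The other INK4 genes, CDKN2A and CDKN2B, also rose, by log2 0.45 each in p53 KO cells and by 0.74 and 0.36 in WT cells. CDK4, its partner CCND3 and all 4 INK4 genes were thus higher with GCN2iB in both genotypes. Counts are per gene and do not separate different transcripts of a gene.

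Between genotypes, CDKN1A was 10.8-fold lower in p53 KO cells under GCN2iB and 7.33-fold lower under vehicle. CDKN2B, an INK4 inhibitor, was 2.59-fold higher under GCN2iB (11.8 ± 0.468 CPM in p53 KO and 4.51 ± 0.644 CPM in WT) and 2.44-fold higher under vehicle, and an antisense gene overlaps it. In all, 2 of 7 CDK inhibitors rose and 1 fell under GCN2iB, and 5 rose and 1 fell under vehicle. The 2 that rose under GCN2iB became 4 with GC and length trends removed, 3 with library totals and 1 without both GCN2iB replicate 4 libraries. Among pocket proteins and E2F factors, with GCN2iB 4 of 13 rose and 1 fell in p53 KO cells (median 0.15), and 2 rose in WT cells (median 0.07). E2F1, an activator of S phase genes, rose 1.56-fold in WT cells, at 176 ± 8.39 CPM with GCN2iB and 113 ± 17.2 CPM with vehicle (adjusted p = 2.61e-05), and 1.39-fold in p53 KO cells (adjusted p = 0.000712). E2F2 rose 1.33-fold in p53 KO cells. Between genotypes 1 of 13 rose and 1 fell under GCN2iB, and 1 fell under vehicle. With GC and length trends removed 5 rose and 4 fell under GCN2iB, and 2 rose and 2 fell under vehicle.

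Later cyclins, kinases and phosphatases rose broadly with GCN2iB, 9 of 9 tested in p53 KO cells (median 0.43) and 8 of 9 in WT cells (median 0.44). The 9 in p53 KO cells became 8 with size factors, with library totals and without both GCN2iB replicate 4 libraries. CCNA2, cyclin A2, rose 1.66-fold in p53 KO cells and 1.56-fold in WT cells. Between genotypes 4 of 9 rose under GCN2iB, and 4 rose and 1 fell under vehicle. CDC25B, a phosphatase related to CDC25A, averaged 133 ± 3.17 CPM in p53 KO GCN2iB and 89.0 ± 5.08 CPM in WT GCN2iB (log2 0.58, adjusted p = 7.18e-07). Under vehicle it was 1.38-fold higher in p53 KO cells. E2F-driven S phase genes rose with GCN2iB too, 18 of 20 in p53 KO cells (median 0.38) and 15 of 20 in WT cells (median 0.28). RRM2, of ribonucleotide reductase, rose 1.53-fold and 1.37-fold in these genotypes. Between genotypes 2 rose and 3 fell under GCN2iB, and 8 of 20 fell under vehicle (median -0.18), MCM3 of the replicative helicase by 1.36-fold. With library totals as the scaling this list had 14 higher in p53 KO and 12 higher in WT cells with GCN2iB, and 1 higher and 5 lower between genotypes under vehicle. Genes of CDK activation and cyclin turnover were mixed, with 6 of 17 higher and none lower with GCN2iB in p53 KO cells, and 6 higher and 3 lower in WT cells. Between genotypes 4 of them fell under GCN2iB, and 1 rose and 2 fell under vehicle. CKS1B, a small CDK-binding protein with processed copies elsewhere in the genome, rose 1.67-fold in p53 KO and 1.88-fold in WT cells. SKP2, of the ligase that degrades p27, rose 1.49-fold and 1.35-fold. CDK7, the kinase that activates other CDKs, was 1.28-fold lower with GCN2iB in WT cells and 1.30-fold lower in p53 KO than in WT cells under vehicle.

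**Figure D4:**
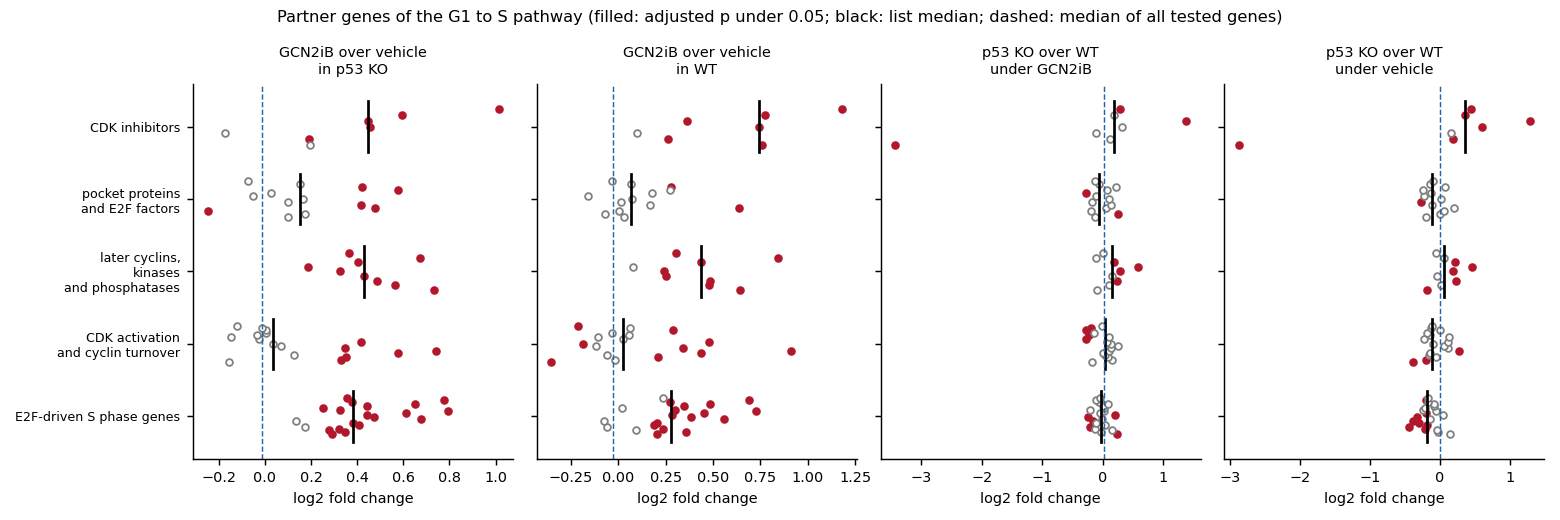
log2 fold change (horizontal axes, which differ in range) of the tested genes of 5 partner lists in the 4 comparisons; filled points have an adjusted p under 0.05, black lines are list medians and dashed lines the median of all tested genes. With GCN2iB the medians of CDK inhibitors lie at 0.45 in p53 KO and 0.74 in WT cells, and those of later cyclins at 0.43 and 0.44.

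Genes with the most similar pattern were sought for each called member, as the smallest root mean square difference over the 16 libraries between centred log2 levels, among 10765 genes. Libraries and scaling are shared by all genes, so the values only describe likeness. The nearest of so many genes lies below the median in any case. The members' own spreads about their means were 0.178 for CDC25A, 0.151 for CCND1, 0.339 for CDK4, 0.245 for CCND3, 0.683 for CDK6 and 0.192 for CDK2. CDC25A was most like CDC6, a loader of the replicative helicase, with a difference of 0.0582, against a median of 0.242 over all genes, followed by SHMT1 and PARP2. CCND1 was nearest to FAM168B (0.048), TMEM185B and MCM6, a helicase subunit, against a median of 0.216. CDK4 was nearest to HDHD5 (0.0824), RPL35 and STUB1, against 0.372, and CCND3 to U2AF2 (0.0523), a splicing factor, PAK4 and SLC25A11, against 0.29. CDK6, with its low counts, was nearest to KCND2 (0.165), SLITRK6 and SYTL2, against 0.707. CDK2 was nearest to KATNA1 (0.0899), UTP14A and COQ2, against 0.25. CCNE1 was nearest to WDR5 (0.0649), ODC1 and CENPBD2P, against 0.198, and its own spread about its mean was 0.116.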

How the data were processed

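RNA of 16 LNCaP libraries was sequenced in paired ends, and the authors deposited raw read counts per gene with no normalization. Tools listed in the submitters' processing notes, with no versions, are HISAT2, featureCounts, Trim Galore and DESeq2, on GRCh38. Which annotation release and strand setting were used is not given in the sources used here, so reads in exons shared by genes on opposite strands may be split or lost. All 16 columns were matched to samples by title. The tests used edgeR 4.0.16, with DESeq2 1.42.0 and limma 3.58.1 as alternatives, under R 4.3.3, and tables were made in Python 3.11.15. The filterByExpr rule left 18549 of 62754 genes. Totals were scaled by TMM, and all libraries entered 1 quasi-likelihood model with a term for each group, tested two-sided. The SE is the log2 ratio divided by the root of its F statistic. Exon lengths and positions come from GENCODE 29, whose gene set may differ from the authors'. The members and lists were chosen with earlier results of these data known. Most named partner genes are up to 2 per list and direction with the smallest adjusted p, and the text gives some of them. CDKN1A, CDKN2A and CDKN2B with GCN2iB, and E2F1 in p53 KO cells, were named outside this rule. The transcript of the deleted gene is not reported here. Alternatives were other scalings, filters and tests, fewer groups, a replicate block, GC and length trends removed, and libraries left out.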

Additional observations from a re-analysis of the deposited data

Results flagged for a closer look

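In 32 sets of 4 libraries, 1 for each tested member and group, a single library stood far from the other 3 in 2 cases, and chance gives about 1 in 20. CCND1 in WT vehicle replicate 4 was 343.6 CPM, and the rest of that group lay at 384 to 391 CPM. CDK2 in p53 KO GCN2iB replicate 1 was 56.83 CPM, and the rest of its group lay at 64.1 to 65.3 CPM. Without these libraries CCND1 was still lower in p53 KO cells under vehicle and CDK2 still higher with GCN2iB in p53 KO cells.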

How the results depend on the processing

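Of 392 member log2 changes under other scalings, filters, tests, blocks or corrections, 357 kept direction and call, 18 gained a call, 1 lost it and 16 changed sign. With 1 library left out, 344 of 384 kept both, 7 gained a call, 4 lost it and 29 changed sign. The sign changes were in uncalled values near 0, and their cause was not tested. CCND1 for GCN2iB in WT cells was 0.000244 where genes needed a mean of 50 counts and 0.0205 with GC and length trends removed (-0.0451 to 0.0156 with 1 library left out), and CDK6 was 0.0241 with the trends removed (-0.0960 to 0.0661). CCNE1 between genotypes under GCN2iB was -0.00115 without a filter and -0.0466 without both GCN2iB replicate 4 libraries (-0.0470 to 0.0344). In the interaction CDK4 was -0.0150 with size factors, -0.0377 with library totals, -0.0142 without a filter, -0.0479 with at least 50 counts, -0.0155 by DESeq2, -0.0609 with the trends removed and -0.0187 without both replicate 4 libraries (-0.0901 to 0.0453). CCNE2 was -0.00945 with library totals, -0.0216 with at least 50 counts and -0.0887 with the trends removed (-0.0523 to 0.0926), and CCND3 was 0.00503 by limma voom (-0.0715 to 0.0488).

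The number of genes called in the interaction, 1, was 2 with size factors, 4 with library totals, 47 without a filter, 6 with at least 50 counts, 38 by DESeq2, 61 with the replicate block, 11 with the trends removed and 6 without both replicate 4 libraries. It was 1 to 34 with 1 library left out, highest without WT GCN2iB replicate 1, and 10 without p53 KO GCN2iB replicate 4, 5 without WT GCN2iB replicate 4 and 2 without WT GCN2iB replicate 3, WT vehicle replicate 3 or p53 KO vehicle replicate 4. No member was called in any of these fits. The labels name no pairing behind the replicate numbers, so the numbers were not taken as pairs in the main tests. Of 24 pairs of same-numbered libraries, 12 had deviations correlated above 0.1. Of 16 libraries, 11 correlated best with their own number, and the median correlation was 0.0949, against -0.0377 for other numbers. Whether same-numbered libraries share an effect was not tested. With the replicate block 5301 genes were called for GCN2iB in p53 KO cells (3734 without it) and 6139 in WT cells (4677). Between genotypes 5775 were called under GCN2iB (4441 without it) and 5203 under vehicle (4025). With the replicate block CCNE2 was called for GCN2iB in p53 KO cells (adjusted p = 0.0327 by edgeR) and between genotypes under GCN2iB (0.0369), CCND3 between genotypes under GCN2iB (0.0158) and vehicle (0.0198), and CDC25A under vehicle (0.0354). Fitting only the groups compared was not run for the interaction, which needs all 4.

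CDK6 rests on 54 to 391 counts per library, with a coefficient of variation of 20.5% in p53 KO GCN2iB, 19.8% in p53 KO vehicle, 15.1% in WT GCN2iB and 7.02% in WT vehicle. CCND2 had at most 2 counts.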
